A study of Rattus norvegicus with 8 samples.

Results

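Glycolysis, the pentose phosphate pathway and the entry of pyruvate into mitochondria were examined gene by gene in rat macrophages exposed to zinc oxide (ZnO). The set held 39 genes, chosen by their place in these pathways: the glucose transporters and the enzymes from hexokinase to pyruvate kinase (24 genes), lactate dehydrogenases and lactate carriers (4 genes), pyruvate dehydrogenase E1 subunits and the kinases that inhibit it (6 genes), and pentose phosphate enzymes (5 genes). Probes were taken where the array's own annotation tied them to a rat RefSeq transcript of one of these genes, which gave 65 of the 45598 non-control probes. A probe was kept when the scanner software marked it well above background on 3 or 4 arrays of either dose; 32 of the 39 genes had such a probe, as did 13460 genes in all.

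The cells were NR8383, an alveolar macrophage line established from the lung lavage of a normal rat. One group of 4 arrays came from cells given ZnO at 16 µg/mL for 4 h and labelled as cultured for 200 passages, and the other group of 4 arrays came from cells given ZnO at 4 µg/mL for 4 h and labelled as cultured for 20 passages. The submitters describe 4 biological replicates per condition. Untreated cells are named in the study's design and were not analysed here, so each difference is between the doses and none is a response to ZnO as such. The arrays of each dose lay on a slide and in a scan of their own, so that dose, slide, scan and passage label cannot be told apart. Nothing further is said of how separate the cultures were, so p-values measure only the spread between these samples, which may be partly technical.

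Glucose enters the cell through facilitative transporters and is split by the glycolytic enzymes into pyruvate, with a net yield of ATP and NADH. Pyruvate is reduced to lactate by lactate dehydrogenase or oxidised to acetyl-CoA by the pyruvate dehydrogenase complex, which pyruvate dehydrogenase kinases switch off. The pentose phosphate pathway branches off at glucose-6-phosphate, and its oxidative arm makes NADPH, which macrophages use both for the oxidative burst and for the upkeep of glutathione.

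Each level below is the log2 of the processed signal minus the 75th percentile of its array, so that a level of 0 is a signal at that percentile. The 75th percentile itself was 374, 151, 190 and 381 intensity units on arrays 1 to 4 at 16 µg/mL, against 516, 313, 479 and 428 at 4 µg/mL. The share of probes marked above background was 31.5% to 35.8% at 16 µg/mL, against 31.8% to 39.3% at 4 µg/mL, and no non-control spot was saturated. Array values correlated at 0.969 to 0.986 within 16 µg/mL, at 0.973 to 0.991 within 4 µg/mL and at 0.915 to 0.947 between the doses. The 10 spike-in RNAs, which are added in fixed amounts and scaled here like any gene, differed by -0.68 to 1.62 between the doses (16 minus 4 µg/mL), and 7 of them were higher at 16 µg/mL. Those named a107, a135, a20, a22, a97 and n11 were higher by 1.15 to 1.62, and the remaining ones differed by -0.68 to 0.23. Among the remaining ones, E1A_r60_3 and a104 had mean levels of -5.06 or lower at both doses. The lowest level marked above background on any array was -4.60, so the differences of these spike-ins say little. The value of -0.68 is that of n9 alone. Of 14 macrophage markers, 11 passed the filter, with a summed level on the linear scale of 415 to 531 at 16 µg/mL and 414 to 489 at 4 µg/mL; Spi1 was higher (0.81) and Cd68 (-1.74) and Itgam (-0.52) were lower at 16 µg/mL. Adgre1, Marco and Msr1, which mark tissue macrophages, did not pass the filter. None of 8 lung epithelium markers and none of 5 neutrophil markers passed, 1 of 5 fibroblast and 1 of 7 lymphocyte markers did, and Pecam1 and Vwf, among 3 measured endothelial markers, were lower at 16 µg/mL. The summed level of the endothelial markers was 5.08 to 7.33 at 16 µg/mL and 10.4 to 13.2 at 4 µg/mL, and the part of other cells in the results was not tested. In a bulk sample, fewer cells of a kind and less RNA per cell cannot be told apart.

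Of the 32 measured genes, 11 were higher and 4 lower at 16 µg/mL than at 4 µg/mL, and 17 did not pass the threshold (limma with Benjamini-Hochberg adjustment over 13460 genes, adjusted p under 0.05). Over all genes tested 41.7% passed, with 19.8% higher and 21.9% lower. The 11 higher genes were the glucose transporter Slc2a1, Hk3, Gpi, Pfkl, Pfkfb3, Aldoa, Tpi1, Gapdh, Eno1, Pkm and, in the pentose phosphate pathway, Pgls. The 4 lower genes were Pfkfb2, Pgk1, Pdk1 and Taldo1, of which Pfkfb2 met the filter through the arrays at 4 µg/mL alone and so adds nothing to the count. In 3 genes the call came with a difference of at least 1 upward and in 2 with at least 1 downward, Taldo1 and Pfkfb2. Of all genes 6.84% and 11.8% did so (18.6% together). Called rises ran from 0.51 to 1.42 on the log2 scale, which is 1.42-fold to 2.68-fold. Called falls, Pfkfb2 aside, ran from -0.84 to -1.01. All 11 rises lay inside the range of the spike-in RNAs. Those other than Slc2a1 and Pfkfb3 were smaller than the spike-in differences of 1.15 to 1.62. The falls of Pgk1, Pdk1 and Taldo1 lay outside the range, whose lower end rests on the spike-in n9 alone. The median difference over the 32 genes was 0.28, against 0.00 over all genes tested, and 25 of the 32 differences were positive. In 12 genes every array at 16 µg/mL lay above every array at 4 µg/mL. In 4 genes, Pfkfb2 among them, every array lay below. Of all genes 18.4% and 21.2% did so. Without scaling of the arrays, which moves the median of all genes to -0.75, none of the 32 was called higher, and the median of the 32 was then -0.47, still 0.28 above that of all genes. With normexp background correction of the raw signals, 12 of the 32 were higher and 6 lower, against 20.6% and 14.8% of all genes. That setting added 50 intensity units to every spot before scaling, where the median processed signal of an array was 5.66 to 20.0 units. The added units shrink the differences of dim genes, so normexp values of such genes partly reflect this constant.

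**Figure D1:**
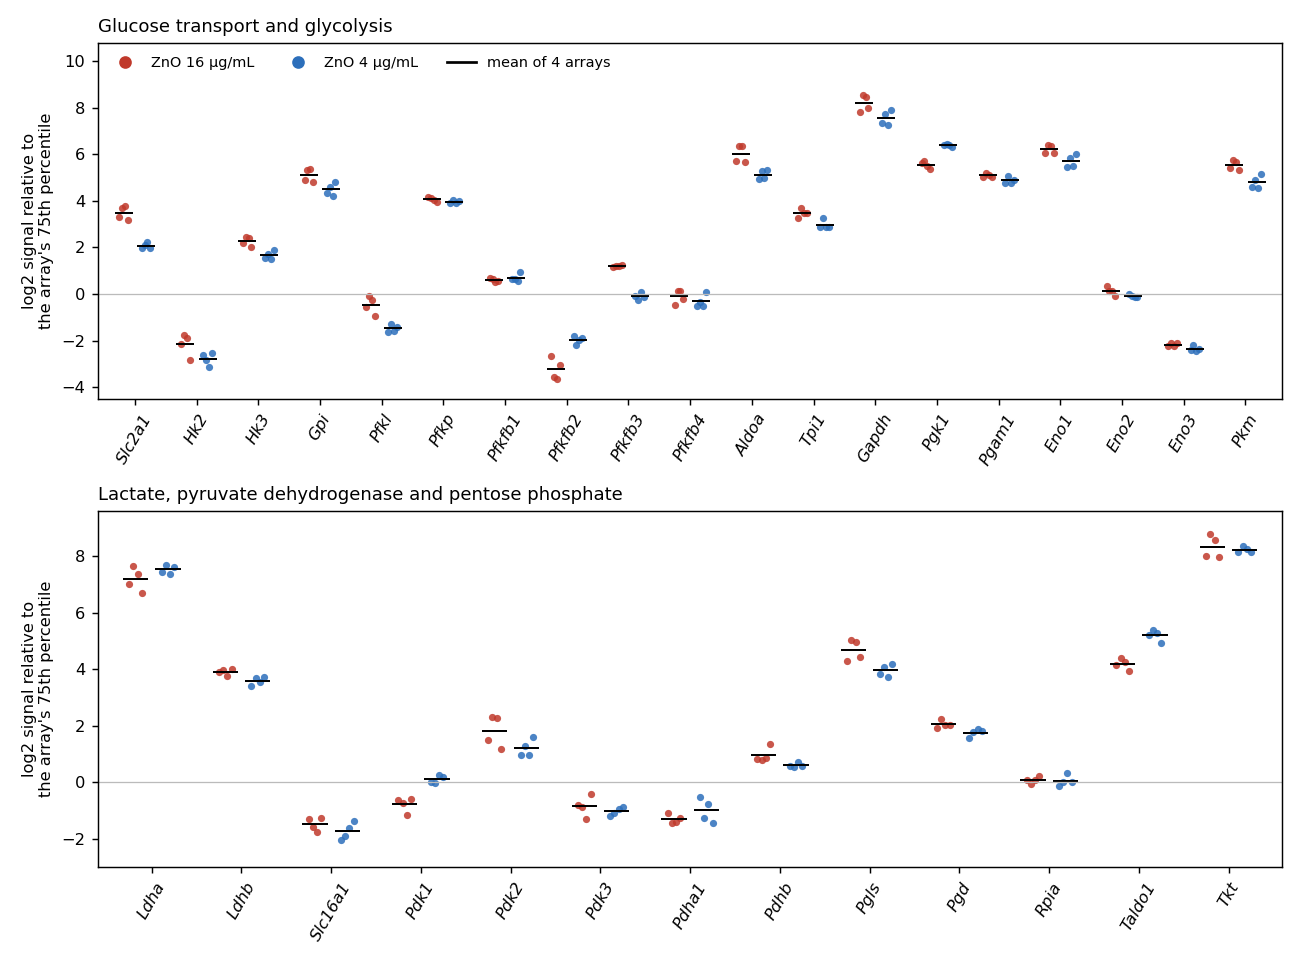
Log2 signal relative to the array's 75th percentile (y axis) for each of the 32 measured genes in pathway order (x axis), with 4 arrays at 16 µg/mL (red, left) and 4 at 4 µg/mL (blue, right), and a bar at each mean. Slc2a1 and Pfkfb3 stand apart upward and Pgk1 and Taldo1 downward at 16 µg/mL, while Tkt and Pfkp overlap.

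**Figure D2:**
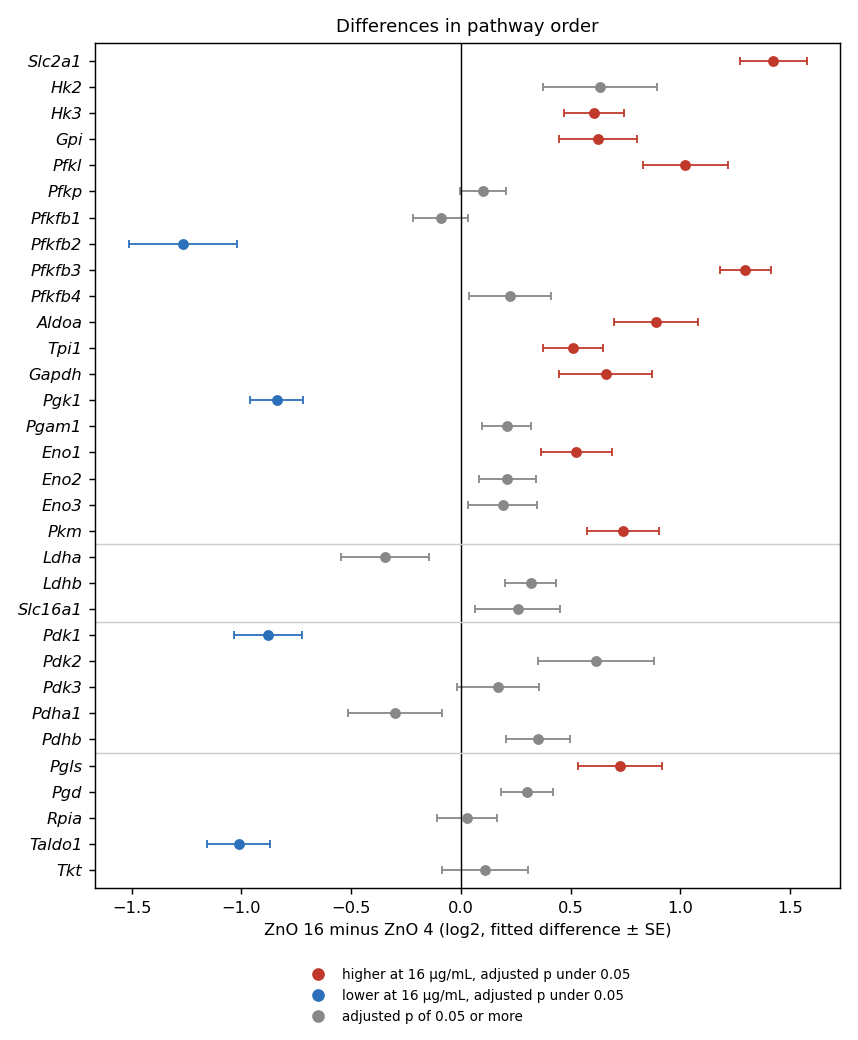
Fitted difference in log2 level, 16 minus 4 µg/mL, with its SE (x axis) for the 32 genes in pathway order from top to bottom; red and blue points passed an adjusted p of 0.05 and grey points did not. From Slc2a1 down to Pkm, 10 genes were higher and 2 lower (Pgk1 and Pfkfb2, the latter near background at 16 µg/mL). The lactate genes were all grey.

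From glucose transport to pyruvate kinase, 10 of 19 measured genes were higher and 2 lower, against 19.8% and 21.9% of all genes tested. The 2 lower genes were Pgk1 and Pfkfb2, which met the filter through the arrays at 4 µg/mL alone. The median difference was 0.53, against 0.00 over all genes. Of the 10 enzymatic steps from hexokinase to pyruvate kinase, 8 had a gene that was higher at 16 µg/mL. Phosphoglycerate kinase and phosphoglycerate mutase did not. The hexokinase, phosphofructokinase and enolase steps had several measured genes and so more chances of a call. Among genes with a mean level above 3, 7 of 14 in the set were higher and 2 lower, against 18.1% and 22.2% of all 1676 such genes. The arrays at 16 µg/mL were themselves split: on replicates 2 and 3, the 2 dimmest arrays, levels exceeded both replicates 1 and 4 in 18 of the 32 genes and in 10 of the 11 higher ones, where 36.1% of all genes and 55.0% of those above a level of 3 did so. Without these 2 arrays, a check added after the data were seen, 6 genes of the set were called higher and 5 lower, and Gpi, Tpi1, Gapdh, Eno1 and Pgls were no longer called.

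Slc2a1 encodes GLUT1, the main basal glucose transporter of many cells. Its level was 3.29, 3.70, 3.77 and 3.18 on the arrays at 16 µg/mL, against 1.96, 2.09, 2.22 and 1.98 at 4 µg/mL. The doses did not overlap, and the difference was 1.42 (SE 0.15, adjusted p = 6.09e-05), a 2.68-fold higher signal. With normexp it was 0.82, or 0.66 relative to all genes; the processed signal was 1.11 to 1.33 times the raw median at 16 µg/mL, against 0.793 to 0.924 times at 4 µg/mL. The transporters Slc2a3 and Slc2a6 did not pass the filter: Slc2a6 was above background on 1 array, at 4 µg/mL.

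Hexokinases trap glucose in the cell as glucose-6-phosphate. Hk3, the form typical of myeloid cells, had levels of 2.20, 2.43, 2.41 and 2.03 at 16 µg/mL, against 1.55, 1.73, 1.49 and 1.87 at 4 µg/mL. There was no overlap between the doses and the difference was 0.61 (SE 0.14, adjusted p = 0.00579). Hk2, an inducible form, differed by 0.63 with a wider spread (SE 0.26, adjusted p = 0.0738), and Hk1 did not pass the filter. The within-array ratio of Hk2 to Hk3 differed by 0.026 between the doses (SE 0.18, exact permutation p = 0.886 before adjustment).

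Gpi, which turns glucose-6-phosphate into fructose-6-phosphate, had levels of 4.92, 5.34, 5.38 and 4.83 at 16 µg/mL, against 4.33, 4.59, 4.21 and 4.83 at 4 µg/mL. The lowest array at 16 µg/mL met the highest at 4 µg/mL, and the difference was 0.62 (SE 0.18, adjusted p = 0.0182). The call was lost without replicate 1 or 3 at 4 µg/mL or replicate 3 at 16 µg/mL (0.53 to 0.57).

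Phosphofructokinase commits sugar to glycolysis, and its liver-type and platelet-type genes differed. Pfkl, the liver type, had levels of -0.55, -0.10, -0.24 and -0.93 at 16 µg/mL, against -1.63, -1.29, -1.60 and -1.40 at 4 µg/mL. The doses did not overlap, and the difference was 1.02 (SE 0.19, adjusted p = 0.00234), a 2.03-fold higher signal. Pfkp, the platelet type, had levels of 4.18, 4.12, 4.02 and 3.94 at 16 µg/mL, against 3.92, 4.02, 3.93 and 3.98 at 4 µg/mL. These arrays overlapped, with a difference of 0.10 (SE 0.10, adjusted p = 0.458). The ratio of Pfkl to Pfkp was 0.92 higher at 16 µg/mL on the log2 scale (exact permutation p = 0.0286, adjusted p = 0.0476 over 15 isozyme pairs). Pfkm, the muscle type, did not pass the filter.

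The PFKFB enzymes set the level of fructose-2,6-bisphosphate, the strongest activator of phosphofructokinase, and 1 of their 4 genes, Pfkfb3, was higher at 16 µg/mL. Pfkfb3, the form with the highest ratio of kinase to phosphatase activity, had levels of 1.16, 1.20, 1.19 and 1.26 at 16 µg/mL, against -0.08, -0.25, 0.08 and -0.12 at 4 µg/mL. The arrays of each dose lay close together and far from the other dose, with a difference of 1.29 (SE 0.12, adjusted p = 1.69e-05). A second Pfkfb3 probe stood above background on 0 arrays of either dose and did not pass the filter (difference 0.17). Pfkfb2, known as the heart form, had levels of -2.67, -3.57, -3.66 and -3.04 at 16 µg/mL, against -1.82, -2.18, -1.98 and -1.89 at 4 µg/mL. The fitted difference was -1.27 with the processed signal and -0.45 with normexp. Pfkfb2 passed the filter only through the arrays at 4 µg/mL, since 2 of its 4 spots at 16 µg/mL stood above background, and 3 other Pfkfb2 probes did not pass, among them 1 with a difference of 0.69. Pfkfb1, known as the liver form, had levels of 0.69, 0.66, 0.51 and 0.55 at 16 µg/mL, against 0.63, 0.65, 0.58 and 0.94 at 4 µg/mL, which overlapped (difference -0.093, adjusted p = 0.572). Pfkfb4 differed by 0.22 (adjusted p = 0.361). Within arrays, the ratio of Pfkfb3 to these forms was higher at 16 µg/mL, by 1.39 against Pfkfb1 and 1.07 against Pfkfb4 (exact permutation, adjusted p = 0.0476 each).

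**Figure D3:**
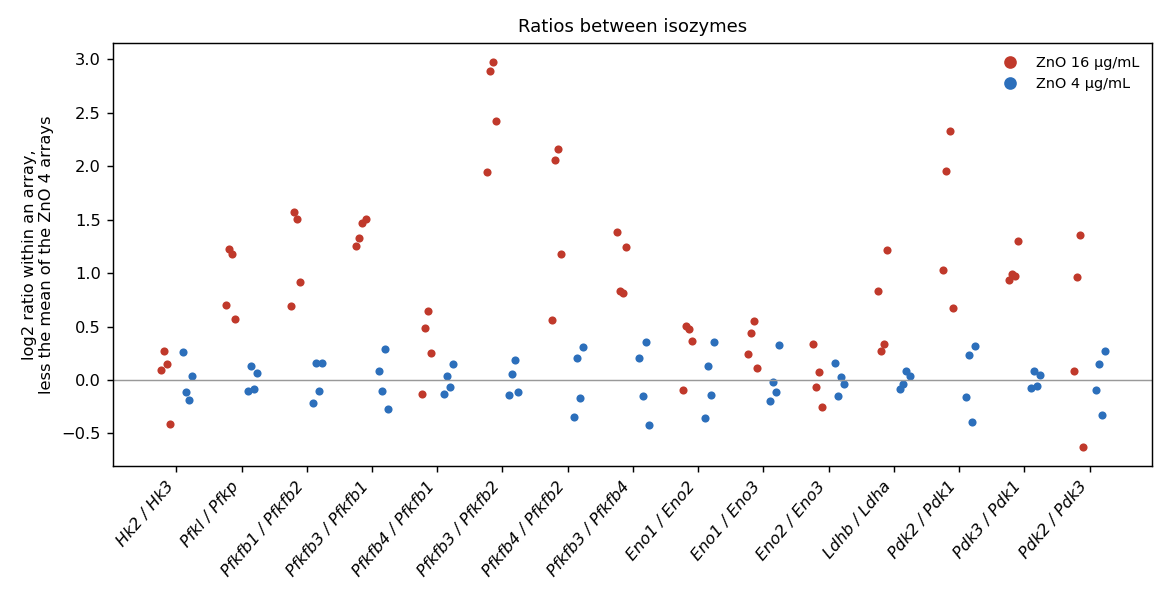
Log2 ratio of 2 isozymes within each array, less the mean of the arrays at 4 µg/mL (y axis), for 15 pairs (x axis), with 4 arrays at 16 µg/mL (red, left) and 4 at 4 µg/mL (blue, right). In 9 pairs the doses do not overlap, among them 3 that involve Pfkfb2, whose signal stood above background on 2 arrays at 16 µg/mL.

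Across the families 9 of the 15 isozyme pairs passed, each at the smallest p that 4 arrays against 4 allow, 0.0286, and 3 of the 9 rest on the Pfkfb2 probe near background. None passed after adjustment with normexp, with no filter, with a filter on all 8 arrays or without any 1 array at 4 µg/mL.

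Aldoa, the aldolase that splits fructose-1,6-bisphosphate, had levels of 5.70, 6.35, 6.36 and 5.68 at 16 µg/mL, against 4.96, 5.27, 4.97 and 5.33 at 4 µg/mL. There was no overlap between the doses and the difference was 0.89 (SE 0.19, adjusted p = 0.00465), 1.85-fold, and 0.56 without the 2 dimmest arrays at 16 µg/mL (adjusted p = 0.0208). Aldoc, its brain isozyme, was above background on 1 array, at 4 µg/mL, and did not pass the filter. Tpi1, which interconverts the triose phosphates, had levels of 3.29, 3.70, 3.49 and 3.48 at 16 µg/mL, against 2.87, 3.27, 2.89 and 2.89 at 4 µg/mL. The arrays came close without overlap, at a difference of 0.51 (SE 0.14, adjusted p = 0.0127).

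Gapdh, which makes the NADH of glycolysis and is a common reference gene, had levels of 7.83, 8.55, 8.47 and 7.99 at 16 µg/mL, against 7.34, 7.73, 7.25 and 7.89 at 4 µg/mL on its brightest probe. The doses overlapped, and the difference was 0.66 (SE 0.21, adjusted p = 0.0297). Its 8 probes, all for the same RefSeq transcript, gave differences from -0.032 to 1.14, and 5 of them were called higher when every probe was tested. Without replicate 2 or 3 at 16 µg/mL, or replicate 1 or 3 at 4 µg/mL, the call was lost (adjusted p up to 0.0878). The call also rested on the processed signal: with normexp on the raw median signals the difference was -0.0090, or -0.16 relative to all genes. Which part of the processing made the difference was not tested. On that probe the processed signal was 1.34 to 1.75 times the raw median at 16 µg/mL, against 1.05 to 1.08 times at 4 µg/mL.

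Pgk1, the first ATP-yielding enzyme of the pathway, was lower at 16 µg/mL. Its level was 5.64, 5.70, 5.48 and 5.36 at 16 µg/mL, against 6.39, 6.43, 6.39 and 6.33 at 4 µg/mL. The doses did not overlap, and the difference was -0.84 (SE 0.12, adjusted p = 0.000402), a 1.79-fold higher signal at 4 µg/mL. Pgam1, the next enzyme, had levels of 5.04, 5.18, 5.13 and 5.05 at 16 µg/mL, against 4.79, 5.06, 4.79 and 4.92 at 4 µg/mL (difference 0.21, SE 0.11, adjusted p = 0.161).

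Enolase makes phosphoenolpyruvate. Eno1, the form found in most tissues, had levels of 6.05, 6.41, 6.38 and 6.05 at 16 µg/mL, against 5.45, 5.83, 5.50 and 6.003 at 4 µg/mL. The highest array at 4 µg/mL came just under the lowest at 16 µg/mL, and the difference was 0.53 (SE 0.16, adjusted p = 0.0254). All 3 Eno1 probes were called higher, at 0.52 to 0.81, though the brightest lost its call without replicate 2 or 3 at 16 µg/mL or replicate 1 or 3 at 4 µg/mL (adjusted p up to 0.0805). The neuronal form Eno2 differed by 0.21 (adjusted p = 0.217) and its other probe by -0.21, and the muscle form Eno3 differed by 0.19 (adjusted p = 0.354). The ratio of Eno1 to Eno2 differed by 0.31 (SE 0.21) and that of Eno1 to Eno3 by 0.34 (SE 0.15), with adjusted exact p of 0.214 and 0.129.

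Pkm, the pyruvate kinase of macrophages, had levels of 5.41, 5.76, 5.67 and 5.34 at 16 µg/mL, against 4.61, 4.90, 4.54 and 5.16 at 4 µg/mL. There was no overlap between the doses and the difference was 0.74 (SE 0.16, adjusted p = 0.00548), 1.67-fold. All 4 Pkm probes were called higher, with differences from 0.67 to 0.98, and they do not tell its splice forms apart here.

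**Figure D4:**
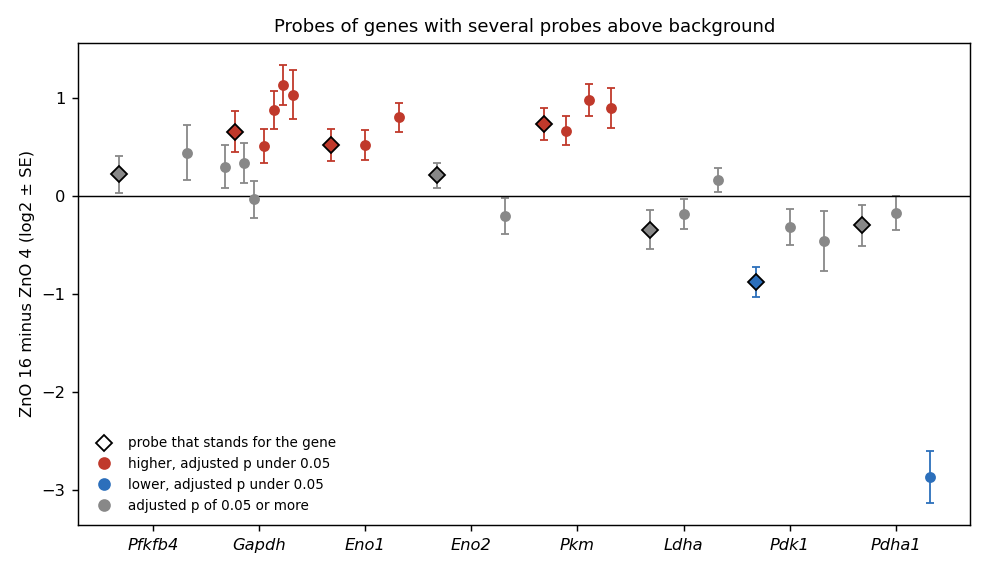
Difference in log2 level, 16 minus 4 µg/mL, with its SE (y axis) for 28 probes of the 8 genes with several probes that passed the filter (x axis), where diamonds mark the probe that stands for the gene and colour marks an adjusted p under 0.05. Probes of Pkm and Eno1 lie together, while those of Gapdh spread from -0.032 to 1.14 and 1 Pdha1 probe, above background on 1 array at 16 µg/mL, lies at -2.87.

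None of the 3 measured lactate genes passed the threshold, where 41.7% of all genes tested did. Ldha, the subunit that favours lactate formation, had levels of 7.01, 7.65, 7.37 and 6.72 at 16 µg/mL, against 7.44, 7.68, 7.39 and 7.64 at 4 µg/mL. These overlapped, with a difference of -0.35 (SE 0.20, adjusted p = 0.185), and its 3 probes gave -0.35, -0.19 and 0.17. Ldha was called lower without the 2 dimmest arrays at 16 µg/mL (-0.67, adjusted p = 0.0104) and with normexp (-0.49). Ldhb, the subunit that favours pyruvate, had levels that did not overlap and differed by 0.32, just short of the threshold (SE 0.12, adjusted p = 0.0508). The ratio of Ldhb to Ldha, taken on the Ldha probe at -0.35, was 0.66 higher at 16 µg/mL (exact permutation, adjusted p = 0.0476). That pass depends on the Pfkfb2 pairs being counted, and the ratio was not tested on the other Ldha probes. Slc16a1, the lactate carrier MCT1, had levels of -1.31, -1.58, -1.74 and -1.25 at 16 µg/mL, against -2.04, -1.89, -1.62 and -1.37 at 4 µg/mL (difference 0.26, SE 0.19, adjusted p = 0.307). Slc16a3, the lactate exporter MCT4, did not pass the filter.

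Pyruvate dehydrogenase kinases inhibit the complex by phosphorylating its E1 alpha subunit. Pdk1 had levels of -0.61, -0.75, -1.14 and -0.60 at 16 µg/mL, against 0.02, -0.04, 0.25 and 0.19 at 4 µg/mL. The doses did not overlap and the difference was -0.88 (SE 0.15, adjusted p = 0.00154). The other 2 Pdk1 probes that passed gave -0.32 and -0.46 without a call. Pdk2 had levels of 1.51, 2.30, 2.29 and 1.17 at 16 µg/mL, against 0.95, 1.30, 0.96 and 1.60 at 4 µg/mL (difference 0.62, SE 0.26, adjusted p = 0.085). Pdk3 differed by 0.17 (adjusted p = 0.488), and Pdk4 did not pass the filter. Relative to Pdk1 on the same array, Pdk2 was 1.495 and Pdk3 1.05 higher at 16 µg/mL (exact permutation, adjusted p = 0.0476 each), while the ratio of Pdk2 to Pdk3 differed by 0.44 (SE 0.46, adjusted p = 0.462).

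The E1 subunits themselves were not called. Pdhb, the beta subunit, had levels of 0.82, 0.78, 0.87 and 1.34 at 16 µg/mL, against 0.57, 0.55, 0.71 and 0.58 at 4 µg/mL. The arrays did not overlap, at a difference of 0.35 (SE 0.14, adjusted p = 0.0728). Pdha1, the alpha subunit, differed by -0.30 on its brightest probe (SE 0.21, adjusted p = 0.283) and by -0.17 on another. The remaining Pdha1 probe stood above background on 1 array at 16 µg/mL and on all 4 at 4 µg/mL, and its fitted difference of -2.87 rests at 16 µg/mL on 3 arrays at background. That probe met the filter through the arrays at 4 µg/mL alone. Averaging the probes of each gene, that one included, moved Pdha1 to -1.12, a value that rests on that probe and is no test of a fall.

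In the pentose phosphate pathway 1 of 5 genes was higher, 1 lower and 3 were not called. Of all genes tested, 19.8% were higher and 21.9% lower. Pgls, the lactonase of the oxidative arm, had levels of 4.29, 5.06, 4.98 and 4.44 at 16 µg/mL, against 3.85, 4.08, 3.74 and 4.19 at 4 µg/mL. These did not overlap, with a difference of 0.72 (SE 0.19, adjusted p = 0.0124). Pgd, which makes NADPH in the same arm, had arrays that did not overlap either and differed by 0.30 (SE 0.12, adjusted p = 0.0661).

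Taldo1, the transaldolase that returns pentose carbon to glycolysis, had levels of 4.15, 4.41, 4.27 and 3.95 at 16 µg/mL, against 5.23, 5.38, 5.29 and 4.92 at 4 µg/mL. There was no overlap between the doses, and the difference was -1.01 (SE 0.14, adjusted p = 0.000385), a 2.02-fold higher signal at 4 µg/mL. Tkt, the transketolase that works beside it, had levels of 8.03, 8.77, 8.59 and 7.98 at 16 µg/mL, against 8.16, 8.35, 8.26 and 8.16 at 4 µg/mL. The arrays at 16 µg/mL lay on both sides of those at 4 µg/mL, and the difference was 0.11 (SE 0.20, adjusted p = 0.678). With normexp on the raw medians Tkt was lower at 16 µg/mL, by -0.60 or -0.76 relative to all genes. Its processed signal was 1.17 to 1.62 times the raw median at 16 µg/mL, against 0.857 to 0.956 times at 4 µg/mL. Rpia, the ribose-5-phosphate isomerase, differed by 0.027 (adjusted p = 0.887).

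**Figure D5:**
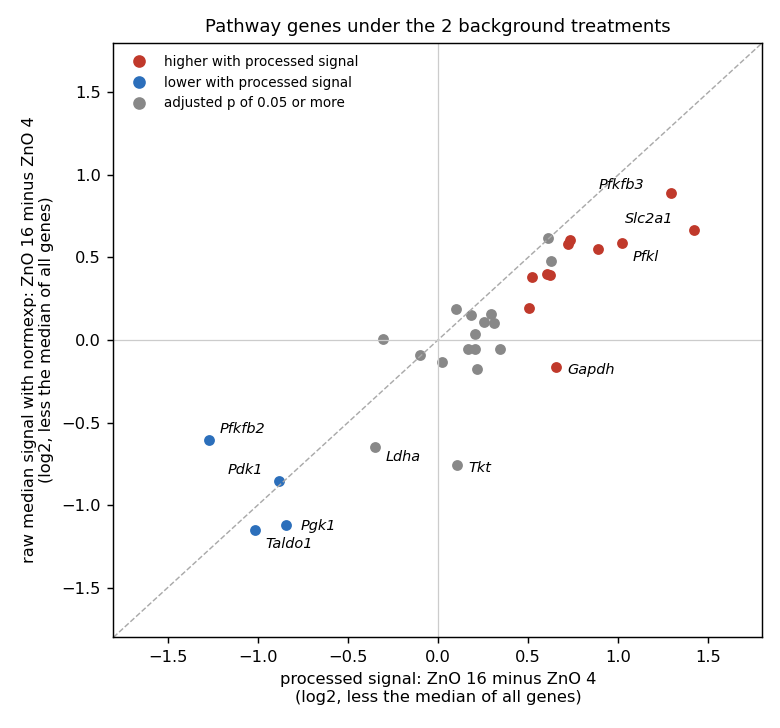
Difference in log2 level, 16 minus 4 µg/mL, less the median of all genes, from the processed signal (x axis) and from the raw median signal with normexp (y axis) for the 32 genes, coloured by the call with the processed signal; the dashed line marks equal values. Gapdh lies at -0.16 on the y axis, and the other called genes keep their side of 0. Tkt, which was not called, lies at -0.76, and it and several other uncalled genes change sides.

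The stretches before the start sites were read for the letters of known response elements, since several genes that differed most are known targets of the hypoxia-inducible factor in rodent or human cells. RefSeq promoters (build GRCr8, the 250 bases before the start) matched 36 of the 39 genes. The hypoxia response core, ACGTG or GCGTG on either strand, was in 23 of 36 genes (63.9%), against 39.6% of 27457 genes with a promoter. It was in 7 of the 10 higher genes with a promoter, in 2 of the 3 lower ones and in 10 of the 17 that were not called. The metal response core, TGCACNC or TGCGCNC on either strand, was in 18 of 36 genes (50.0%), against 22.5% of all, and in 5 of the 10 higher, 0 of the 3 lower and 11 of the 17 uncalled ones. The antioxidant response core TGACNNNGC was in 2 of 36 genes (5.56%), against 11% of all. The E-box CACGTG, which contains the hypoxia core, was in 5 of 36 genes (13.9%), against 6.18% of all. These matches are letters in a window and say nothing of binding. The promoters of 2 higher and 2 lower genes are shown to let the arrangement be compared, with the hypoxia core in capitals on either strand, at chr5:138002272-138002521 (plus strand) for Slc2a1, chr17:71944683-71944932 (plus strand) for Pfkfb3, chr3:77113264-77113513 (plus strand) for Pdk1 and chr1:205922946-205923195 (plus strand) for Taldo1.
Slc2a1: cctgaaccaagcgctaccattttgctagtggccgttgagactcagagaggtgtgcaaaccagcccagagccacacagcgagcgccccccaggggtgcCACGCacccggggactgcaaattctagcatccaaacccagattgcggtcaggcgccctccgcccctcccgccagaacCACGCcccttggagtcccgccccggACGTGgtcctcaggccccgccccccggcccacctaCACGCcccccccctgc
Pfkfb3: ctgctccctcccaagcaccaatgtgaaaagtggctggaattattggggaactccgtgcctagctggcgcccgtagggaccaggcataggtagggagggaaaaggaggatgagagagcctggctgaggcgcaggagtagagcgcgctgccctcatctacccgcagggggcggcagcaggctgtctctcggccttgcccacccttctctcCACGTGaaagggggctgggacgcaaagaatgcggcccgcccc
Pdk1: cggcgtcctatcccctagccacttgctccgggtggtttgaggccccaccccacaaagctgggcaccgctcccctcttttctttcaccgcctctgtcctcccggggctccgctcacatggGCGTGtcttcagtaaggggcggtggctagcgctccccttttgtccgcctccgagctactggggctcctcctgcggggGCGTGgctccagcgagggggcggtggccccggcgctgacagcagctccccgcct
Taldo1: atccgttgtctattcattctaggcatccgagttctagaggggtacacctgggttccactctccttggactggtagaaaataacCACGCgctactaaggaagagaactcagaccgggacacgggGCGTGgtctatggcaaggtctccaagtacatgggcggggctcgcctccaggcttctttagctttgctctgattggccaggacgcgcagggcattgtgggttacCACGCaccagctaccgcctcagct
Slc2a1, which was higher, holds 4 such cores and Pfkfb3 holds 2 that overlap in its E-box, while Pdk1, which was lower, holds 2 and Taldo1 holds 3.

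Outside the set, 49 of 84 further genes of these pathways and their regulators were measured, with a median difference of -0.069. Of these 10 were higher and 11 lower, against 19.8% and 21.9% of all genes tested. Among the lower ones, the regulators Txnip and Arnt met the filter through the arrays at 4 µg/mL alone and so add nothing to the count. Among 3 other sugar transporters 1 was higher and 1 lower, the fructose transporter Slc2a5 at -1.11 being the largest. Of 6 other glycolytic enzymes 1 was higher, Gpd1 at 0.74 (0.50 with low-signal areas of the arrays masked, which ended the call at an adjusted p of 0.0504), and 2 were lower. Of 4 other lactate and pyruvate carriers 1 was higher and 1 lower, Emb, a partner of the lactate carriers, at -1.07. Of 8 other pentose phosphate genes 2 were higher and 1 lower; H6pd, an enzyme of the endoplasmic reticulum, differed by 1.12. Of 6 other genes of pyruvate fate 1 was higher, Pc, the pyruvate carboxylase, at 0.73, and 1 was lower.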

How the data were processed

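Total RNA of NR8383 cells was labelled with Cy3 and hybridised to 1-colour Agilent arrays of 62976 spots, 1 array per sample. Per the submitters' processing notes, signals were read with version 11.0.1.1 of Agilent Feature Extraction. The deposited intensities are the processed signal, from which, per the file headers, background and spatial trend had been removed array by array, and the raw median signals of spot and local background. The deposited flags (well above background, outlier, saturated) were used as given by the authors' software. The arrays' annotation uses the rn4 build per the file headers; gene symbols came from RefSeq (GRCr8) through transcript accessions, for 21109 probes, and 24489 probes stayed without a symbol. No coordinates were converted.

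Outlier-flagged spots were left out, log2 of the processed signal was centred on each array's 75th percentile, and spots of a probe were averaged. A probe was kept when well above background on at least 3 of 4 arrays of a dose (15572 probes), and the brightest probe stood for its gene. All 8 arrays entered limma 3.58.1 (R 4.3.3) with an intensity trend, 16 minus 4 µg/mL, with Benjamini-Hochberg adjustment over 13460 genes and a threshold of 0.05. The number of arrays limits the precision. Isozyme pairs were compared by their within-array log2 ratio by exact permutation, two-sided, of the 8 arrays (70 assignments, smallest p 0.0286), adjusted over 15 pairs. Single probes were refitted as features of their own, which was added after the data were seen.

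The genes, lists and tests were chosen with earlier results of these data known. Values on every array are given for called genes with an absolute difference of at least 1 and for the brightest gene of each step. Other pathway lists are given by counts and by the called gene with the largest difference. Pdk1, Arrdc4, Myc, Hif1a and Arnt were chosen after their values were seen. Alternatives covered scaling, background, floor, low-signal areas, filters, probe choice, the replicate block and leaving out arrays.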

Additional observations from a re-analysis of the deposited data

Results flagged for a closer look

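In 64 sets of 4 arrays (32 genes at each dose), 2 held an array far from the other 3, where chance gives about 5% of sets. Tpi1 stood at 3.27 on replicate 2 at 4 µg/mL, while the other arrays of that dose lay between 2.87 and 2.89. Without that array its difference was 0.61 (limma, adjusted p = 0.00819), against 0.51 with it. Pdhb stood at 1.34 on replicate 4 at 16 µg/mL, while the other arrays of that dose lay between 0.78 and 0.87. Without that array its difference was 0.22 (limma, adjusted p = 0.148), against 0.35 with it. The cause of either was not tested.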

How the results depend on the processing

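Without scaling, which moved the median of all genes by -0.75, 229 genes were called higher and 4417 lower, none of the 32 genes was called higher and 6 were called lower, their median turned to -0.47, and these turned negative: Hk2 (-0.12), Hk3 (-0.15), Gpi (-0.13), Pfkp (-0.65), Pfkfb4 (-0.53), Tpi1 (-0.24), Gapdh (-0.094), Pgam1 (-0.55), Eno1 (-0.23), Eno2 (-0.54), Eno3 (-0.56), Pkm (-0.015), Ldhb (-0.44), Slc16a1 (-0.49), Pdk2 (-0.14), Pdk3 (-0.58), Pdhb (-0.40), Pgls (-0.030), Pgd (-0.45), Rpia (-0.73) and Tkt (-0.64). Scaling to the array median moved all genes by 0.17, gave 3405 higher and 1980 lower genes, a median of 0.45 over the set and Pfkfb1 at 0.074. Normexp moved all genes by 0.15, gave 2779 higher and 1998 lower genes, and turned Pfkfb1 (0.062), Pfkfb4 (-0.018), Gapdh (-0.0090), Pdha1 (0.16) and Tkt (-0.60). Relative to all genes, Gapdh was the one called gene that turned under any scaling, quantile or normexp alternative. Without the 2 dimmest arrays at 16 µg/mL, 6 genes of the set were higher, and Pfkfb4 (-0.015) and Tkt (-0.23) turned. The 9 isozyme calls sat at the smallest p the design allows, so that a loss of few pairs ended all: 0 passed with normexp, with a filter on all 8 arrays and with no filter, and 0 to 10 passed when 1 array was left out. Leaving out 1 array gave 1941 to 2758 higher and 2416 to 2818 lower genes, 8 to 13 higher and 4 to 5 lower in the set and a set median of 0.24 to 0.35; Rpia, which ranged from -0.039 to 0.12, turned without replicate 1 at 4 µg/mL or replicate 4 at 16 µg/mL (-0.02), and Tkt, from -0.032 to 0.23, without replicate 2 at 16 µg/mL. Gpi lost its call without replicate 1 or 3 at 4 µg/mL or replicate 3 at 16 µg/mL (0.53 to 0.57), and Gapdh and Eno1 without the same arrays at 4 µg/mL or replicate 2 or 3 at 16 µg/mL; with no filter Gapdh (adjusted p = 0.0727) and Eno1 (0.0628) lost theirs. Leaving out 1 array gave a call to Hk2 (without replicate 4 at 16 µg/mL), Ldha (without replicate 2 at 16 µg/mL), Ldhb (without replicate 4 at 4 µg/mL or 3 at 16 µg/mL) and Pdk2 (without replicate 4 of either dose). Deviations of same-numbered arrays correlated at 0.25, 0.40, -0.22 and -0.029, with arrays 1 and 2 but not 3 and 4 closest to their own number. Whether same-numbered arrays share a culture or day is not stated and cannot be told from these values. The replicate block gave 2591 higher and 2881 lower genes and changed no call in the set (11 higher, 4 lower, median 0.28). Causes were not tested. Dim arrays at 16 µg/mL limit what can be said of weakly expressed genes.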

Other observations

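Among 8 measured regulators of glycolytic transcription, 2 were higher and 3 lower at 16 µg/mL, against 19.8% and 21.9% of all genes tested. Of the 3 lower ones, Txnip and Arnt met the filter through the arrays at 4 µg/mL alone and so add nothing to the count. Txnip, which restrains glucose uptake, stood above background on 0 arrays at 16 µg/mL and on 3 at 4 µg/mL. Set against the lowest signal above background, the higher dose had at least 4.55-fold lower processed signal (limma, adjusted p = 5.82e-05). The mean at 4 µg/mL behind this bound includes an array not above background, so the bound is approximate. Txnip met the filter through the arrays at 4 µg/mL alone, which favours a fall, so the adjusted p is no test of one. With normexp its difference relative to all genes was -1.08. Its paralog Arrdc4 had levels of -0.32, -0.71, -0.71 and -0.33 at 16 µg/mL, against -2.59, -2.57, -2.56 and -2.43 at 4 µg/mL. The doses did not overlap, and Arrdc4 was higher by 2.02 (SE 0.16, adjusted p = 6.84e-06), or by 0.88 relative to all genes with normexp. Myc, a transcription factor that drives many glycolytic genes, had levels of -1.06, -0.91, -0.93 and -1.19 at 16 µg/mL, against 1.24, 1.52, 1.72 and 1.47 at 4 µg/mL. It was lower, with a difference of -2.51 (SE 0.14, adjusted p = 8.08e-07). Hif1a, the hypoxia-inducible subunit, differed by 0.47 (SE 0.21, adjusted p = 0.0905). Arnt, its partner subunit, differed by -1.11 (limma, adjusted p = 0.0240) while above background on 2 arrays at 16 µg/mL and on 4 at 4 µg/mL. The call was lost in 3 of 8 fits that left out 1 array (adjusted p up to 0.0709). With normexp the Arnt difference relative to all genes was -0.097 (adjusted p = 0.846), a value that the 50 added units shrink for so dim a gene.

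Of 14 measured genes of gluconeogenesis and glycogen, 2 were higher and 2 lower, against 19.8% and 21.9% of all genes tested. Pygl, the glycogen phosphorylase known as the liver form, had levels of -0.67, -1.16, -1.48 and -1.51 at 16 µg/mL, against 0.85, 1.03, 1.07 and 1.13 at 4 µg/mL. The doses did not overlap, and the difference was -2.22 (SE 0.19, adjusted p = 1.21e-05), larger in size than that of any of the 32 glycolytic, pentose phosphate and pyruvate dehydrogenase genes; with normexp it was -1.59 relative to all genes.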
